A study of Homo sapiens with 6 samples.

Results

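The 10 amino acid transporter genes described here were followed in MCF10A cells, a non-tumorigenic human mammary epithelial line, carrying an shRNA against FRY. They were taken as every probe set of the array whose only annotated gene was SLC7A11, SLC3A2, SLC7A5, SLC1A5, SLC38A1, SLC38A2, SLC7A1, SLC1A4, SLC6A9 or SLC43A1. This gave 25 of the 54613 probe sets other than controls, and all 10 genes had at least 1. RNA came from 3 samples of a clone stably transfected with the FRY shRNA (shFRY) and 3 samples of a clone with a non-targeting shRNA (control). All cells were MCF10A selected with puromycin, grown with epidermal growth factor, insulin, hydrocortisone and pituitary extract. Each construct is represented by 1 clone, the shFRY clone having been picked for its lower FRY expression, and replicate samples came from different passages. The p-values therefore cover the spread among the 6 samples alone, and clone and construct cannot be told apart. Values are deposited RMA signals on a log2 scale, on which a difference of 1 is a 2-fold change.

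Amino acids cross the plasma membrane through carriers that differ in substrate and ion coupling. SLC7A11 (xCT) and SLC7A5 (LAT1) are light chains that reach the surface only when bound to the SLC3A2 heavy chain (CD98), and they exchange cystine for glutamate and large neutral amino acids for intracellular glutamine. SLC1A5 and SLC1A4 exchange small neutral amino acids with sodium, SLC38A1 and SLC38A2 accumulate glutamine and alanine, SLC7A1 takes up arginine and lysine, SLC6A9 takes up glycine, and SLC43A1 carries branched-chain amino acids. Several of these genes are known targets of ATF4, the transcription factor of the amino acid response, which binds C/EBP-ATF response elements, and SLC7A11 is also a target of NRF2, which binds antioxidant response elements.

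Stretches before transcription starts are shown for members with matches to the letters of C/EBP-ATF or antioxidant response elements. A part of these elements in the differences was not tested. RefSeq promoter windows of GRCh38.p14, 250 bases before to 50 bases after a start, matched 9 of the 10 members, with 16 windows, and SLC7A11 was not among them. Each line gives the 150 bases before a start, running on past it where a match crosses it. Bases run 5′ to 3′ in the direction of the gene, with motif matches in capitals. Another SLC1A5 stretch with matches is not printed. Matches that begin after a start, at 8 in SLC7A1 and at 38 in SLC3A2, lie outside the printed lines.
SLC1A4, chr2:64989249-64989399, plus strand: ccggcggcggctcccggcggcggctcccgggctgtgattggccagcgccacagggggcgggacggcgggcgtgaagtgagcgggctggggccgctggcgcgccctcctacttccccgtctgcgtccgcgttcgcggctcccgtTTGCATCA
SLC38A1, chr12:46266513-46266666, minus strand: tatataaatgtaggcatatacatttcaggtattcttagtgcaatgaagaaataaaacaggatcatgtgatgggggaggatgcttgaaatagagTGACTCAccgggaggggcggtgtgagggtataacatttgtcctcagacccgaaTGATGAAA
SLC1A5, chr19:46784815-46784964, minus strand: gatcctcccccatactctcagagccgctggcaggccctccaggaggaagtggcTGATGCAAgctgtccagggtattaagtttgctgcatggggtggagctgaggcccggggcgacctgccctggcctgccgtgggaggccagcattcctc
SLC3A2, chr11:62881549-62881698, plus strand: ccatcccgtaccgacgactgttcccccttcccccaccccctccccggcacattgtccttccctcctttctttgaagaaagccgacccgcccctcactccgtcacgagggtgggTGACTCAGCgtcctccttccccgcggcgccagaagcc
SLC7A5, chr16:87869501-87869657, minus strand: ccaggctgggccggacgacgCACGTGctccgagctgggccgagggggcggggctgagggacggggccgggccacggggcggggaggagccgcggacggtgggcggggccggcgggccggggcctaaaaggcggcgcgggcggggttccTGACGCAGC
SLC7A1, chr13:29595689-29595838, minus strand: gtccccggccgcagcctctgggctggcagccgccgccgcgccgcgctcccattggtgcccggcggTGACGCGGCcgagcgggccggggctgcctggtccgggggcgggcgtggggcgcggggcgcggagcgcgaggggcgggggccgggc
The letters TGATGNAA (C/EBP-ATF response element, searched on both strands) occurred in a window of 5 of the 9 members, against 4.46% of all genes in the table. By window they occurred in 5 of the 16 member windows, against 3.62% of all 35116 windows. Matches were at -7 in SLC1A4, at -4 in SLC38A1, at -97 in 1 of the SLC1A5 windows, at 8 in SLC7A1 and at 38 in SLC3A2, counted from 1 at the start and from -1 before it. The letters TGACNNNGC (antioxidant response element, both strands) occurred in SLC3A2, SLC7A5, SLC7A1 and another SLC1A5 window, 4 of 9 members against 16.1% of genes. By window these were 4 of the 16 member windows, against 13.3% of all windows. In SLC3A2 the TGACNNNGC match overlaps the letters TGANTCA (AP-1 site), which were also in SLC38A1 and in 9.37% of genes. The palindrome CACGTG (E-box) was in SLC7A5, SLC1A5 and SLC43A1, and in 8.77% of genes. A match describes these letters and not a bound site.

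The labels were checked on FRY, which encodes a protein of microtubules and the mitotic spindle. At probe set 204072_s_at FRY signal was 2.88, 3.31 and 3.14 in the shFRY samples, against 4.23, 3.55 and 3.81 in the control samples, a difference of -0.75 (SE 0.19, limma adjusted p = 0.0223). This was the only 1 of its 4 probe sets past the threshold of an adjusted p of 0.05, and the call was lost without control sample 1 or 3 or shFRY sample 1, with limma adjusted p up to 0.0712. It was also lost without shFRY sample 3 (limma adjusted p = 0.0502) and with the replicate number as a block (limma adjusted p = 0.0522), under which 1555904_at and 214319_at passed as lower instead (limma adjusted p = 0.0263 and 0.0365). With the beta-actin 3' minus 5' difference of each sample as a covariate it was at -0.38 (limma adjusted p = 0.676). All 5 epithelial and all 3 measured basal markers lay above the median of all probe sets, 3.04. KRT19 was only just above it, with means of 3.09 in shFRY and 3.06 in control samples (percentile 50.4). Of the basal markers KRT14 (2.92) and ITGB4 (1.16) were higher in shFRY and KRT5 was at 0.08, not called, and of the epithelial markers CDH1 (0.37) was higher, KRT8 (-0.93) and KRT18 (-0.37) were lower, and EPCAM (-0.02) and KRT19 (0.03) were not called. Of 18 measured markers of other cell types (fibroblast, immune, endothelial, adipocyte), 4 lay above that median, COL1A1, DCN, PECAM1 and KDR. Of these 18, DCN, PTPRC and KDR were lower in shFRY and 0 were higher in limma, with 1 higher at an unadjusted p under 0.05. The mean signal of the 6 fibroblast markers was 3.01 to 3.11 in the shFRY samples and 3.43 to 3.63 in the control samples, and that of the 4 endothelial markers 3.68 to 3.97 in the shFRY samples and 4.30 to 4.46 in the control samples. The 4 immune markers averaged 1.79 to 2.01 in the shFRY samples and 2.11 to 2.29 in the control samples, and the 4 adipocyte markers 1.96 to 2.11 in the shFRY samples and 2.05 to 2.25 in the control samples. In each of the first 3 lists 1 gene was called, DCN (-2.79) among fibroblast, KDR (-2.45) among endothelial and PTPRC (-1.06) among immune markers, while THY1 (0.24), CDH5 (0.21) and CD3E (0.16) lay on the other side of 0 and were not called. The part of these markers in the results was not tested. All samples came from clones of the MCF10A epithelial line, so the values describe single genes and do not count cells of other types.

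The transporters were mostly higher in shFRY cells. With 1 probe set per gene, 7 of the 10 genes passed as higher and 0 as lower in limma, where 13.7% of all 19775 genes passed as higher and 16.0% as lower. At an unadjusted p under 0.05, 0 of the 10 were lower. Their median difference was 0.69, against 0.03 over all genes. SLC7A11, SLC6A9 and SLC1A4 rose by at least 2-fold, as did 3.42% of all genes. Among the 25 probe sets, 17 passed as higher and 0 as lower (0 lower also at an unadjusted p under 0.05), where 10.9% of all probe sets passed as higher and 12.2% as lower. In 21 of the 25 every shFRY sample lay above every control sample, as it did in 20.2% of all probe sets, and in the other 4 the groups overlapped. The median SD of a member probe set was 0.12 in the shFRY samples and 0.09 in the control samples. The members and the lists below were chosen with earlier results of these data known, so these counts describe the genes and no list was tested.

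**Figure D1:**
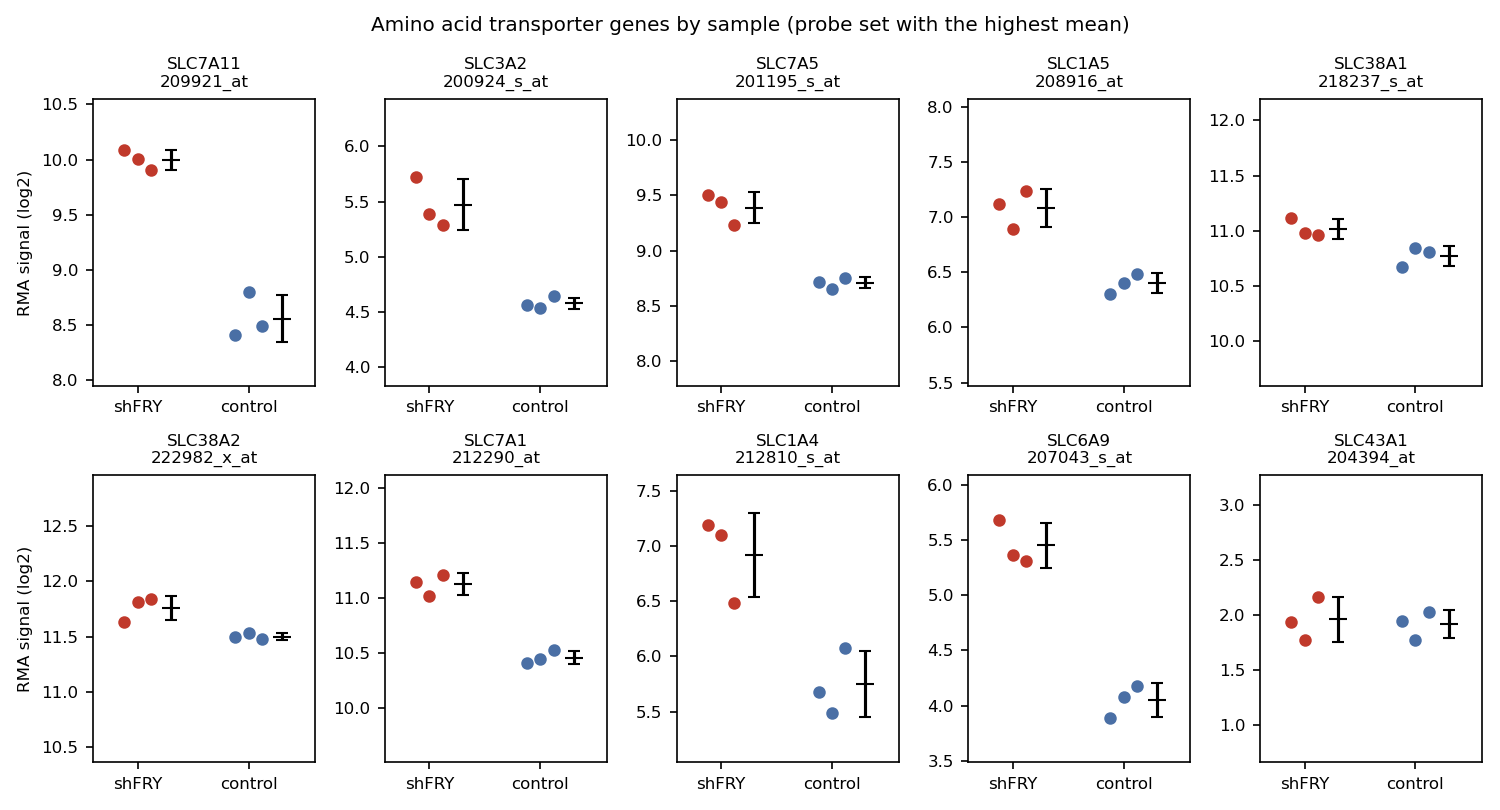
RMA signal (log2) of each transporter gene in the 3 shFRY samples (red) and the 3 control samples (blue), for the probe set with the highest mean, with black bars at the mean and SD of each group. Every panel spans the same height, so distances compare between panels. The groups overlap for SLC43A1 and are separate in the other 9 panels, with shFRY above control. Of all 19775 genes, 4321 had shFRY above control without overlap.

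The cystine and glutamate exchanger gene SLC7A11, whose product supplies cysteine for glutathione, was higher by 2.71-fold to 3.98-fold at its 3 probe sets. At 209921_at the signal was 10.09, 10.01 and 9.91 in the shFRY samples, against 8.41, 8.80 and 8.49 in the control samples. At 207528_s_at it was 8.43, 8.17 and 8.23 in the shFRY samples, against 6.25, 6.37 and 6.23 in the control samples. At 217678_at it was 8.15, 8.29 and 7.89 in the shFRY samples, against 6.62, 6.75 and 6.62 in the control samples. No shFRY sample came near a control sample at any of them, and the samples of a group lay close together. The differences were 1.44 (95% confidence interval 1.14 to 1.74, limma adjusted p = 0.000169), 1.99 (1.73 to 2.25, limma adjusted p = 1.87e-05) and 1.45 (1.15 to 1.75, limma adjusted p = 0.000157). Ranked with 1 probe set for each gene, SLC7A11 stood at rank 327 of 19775 by difference, the highest of the 10 transporters.

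The heavy chain gene SLC3A2 and the light chain gene SLC7A5 rose as well, by less than SLC7A11. SLC3A2 signal at 200924_s_at was 5.72, 5.39 and 5.29 in the shFRY samples, against 4.56, 4.54 and 4.64 in the control samples. SLC7A5 signal at 201195_s_at was 9.50, 9.44 and 9.23 in the shFRY samples, against 8.72, 8.65 and 8.75 in the control samples. Both genes were separate between groups by more than the range of either group. SLC3A2 differed by 0.89, or 1.85-fold (SE 0.13, limma adjusted p = 0.00198), and SLC7A5 by 0.68, or 1.61-fold (SE 0.11, limma adjusted p = 0.00316). SLC43A1, which carries branched-chain amino acids without sodium or a heavy chain, was 1.94, 1.77 and 2.16 in the shFRY samples, against 1.95, 1.77 and 2.03 in the control samples. These groups overlapped, and the difference of 0.04 had a 95% confidence interval of -0.27 to 0.35 (limma adjusted p = 0.863). The SLC43A1 probe set was dim, at the percentile 28.4 of all probe set means, where RMA compresses differences.

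The neutral amino acid exchanger genes SLC1A5 and SLC1A4 were both higher. SLC1A5, the glutamine carrier ASCT2, was at 7.12, 6.89 and 7.24 in the shFRY samples, against 6.30, 6.40 and 6.48 in the control samples (208916_at). The groups were apart, with a difference of 0.69 or 1.61-fold (SE 0.12, limma adjusted p = 0.0046). SLC1A4, which prefers alanine, serine and cysteine, passed at 3 of its 5 probe sets. At 212810_s_at its signal was 7.19, 7.10 and 6.48 in the shFRY samples, against 5.68, 5.49 and 6.08 in the control samples. The lowest shFRY sample was near the highest control sample, and this was the widest spread among the called probe sets (difference 1.18, SE 0.22, limma adjusted p = 0.00548). At 209610_s_at it was 5.82, 5.85 and 5.78 in the shFRY samples, against 4.53, 4.98 and 4.78 in the control samples, with a difference of 1.06 (SE 0.13, limma adjusted p = 0.000822). The third called probe set, 212811_x_at, differed by 0.73 (limma adjusted p = 0.00531). The other two SLC1A4 probe sets overlapped between groups: 209611_s_at at 0.21 (95% confidence interval -0.25 to 0.68) and the dim 244377_at at -0.09 (-0.32 to 0.14). With probe sets ending in _x_at and _s_at left out, only 244377_at remained for this gene. With the mean of its 5 probe sets SLC1A4 differed by 0.62 and passed.

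The sodium-coupled SLC38 genes had differences of at most 0.49. They are neighbours on chromosome 12 in the order of RefSeq protein-coding genes, with SLC38A4 on the far side of SLC38A2. SLC38A2, the SNAT2 gene that is induced by amino acid shortage, passed at 2 of 3 probe sets. At 220924_s_at it was 11.49, 11.64 and 11.66 in the shFRY samples, against 11.02, 11.16 and 11.14 in the control samples. The groups did not touch, and the difference was 0.49 or 1.41-fold (SE 0.11, limma adjusted p = 0.0112). At 218041_x_at the difference was 0.43 (limma adjusted p = 0.0232), a call lost without any 1 of the control samples or when shFRY sample 2 or 3 was dropped (limma adjusted p between 0.0544 and 0.079). At 222982_x_at, which has the highest mean and stands for the gene in the comparison of genes, it was 0.26 (limma adjusted p = 0.123). SLC38A1, the SNAT1 gene, had 11.12, 10.98 and 10.96 in the shFRY samples, against 10.67, 10.84 and 10.81 in the control samples (218237_s_at). The groups did not overlap there or at 224579_at and 224580_at, but no SLC38A1 probe set passed. The differences at these 3 were 0.25, 0.21 and 0.28, with upper confidence bounds of 0.49, 0.47 and 0.50, and at the dim 236857_at it was 0.02 (-0.23 to 0.27).

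The arginine and lysine carrier gene SLC7A1 and the glycine carrier gene SLC6A9 rose. SLC7A1 passed at all 5 of its probe sets, with differences between 0.66 and 0.95. At 212290_at it was 11.14, 11.02 and 11.21 in the shFRY samples, against 10.41, 10.45 and 10.53 in the control samples. At 212292_at it was 6.76, 6.56 and 6.91 in the shFRY samples, against 5.69, 5.70 and 5.99 in the control samples. The groups were separate at both, with limma adjusted p = 0.00262 at 212290_at and 0.00163 at 212292_at. SLC6A9, the GlyT1 gene, was 5.68, 5.36 and 5.31 in the shFRY samples, against 3.89, 4.08 and 4.18 in the control samples (207043_s_at). All shFRY samples lay more than 1 above all control samples on the log2 scale, and the difference was 1.40 or 2.64-fold (95% confidence interval 2.12-fold to 3.28-fold, limma adjusted p = 0.000247).

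**Figure D2:**
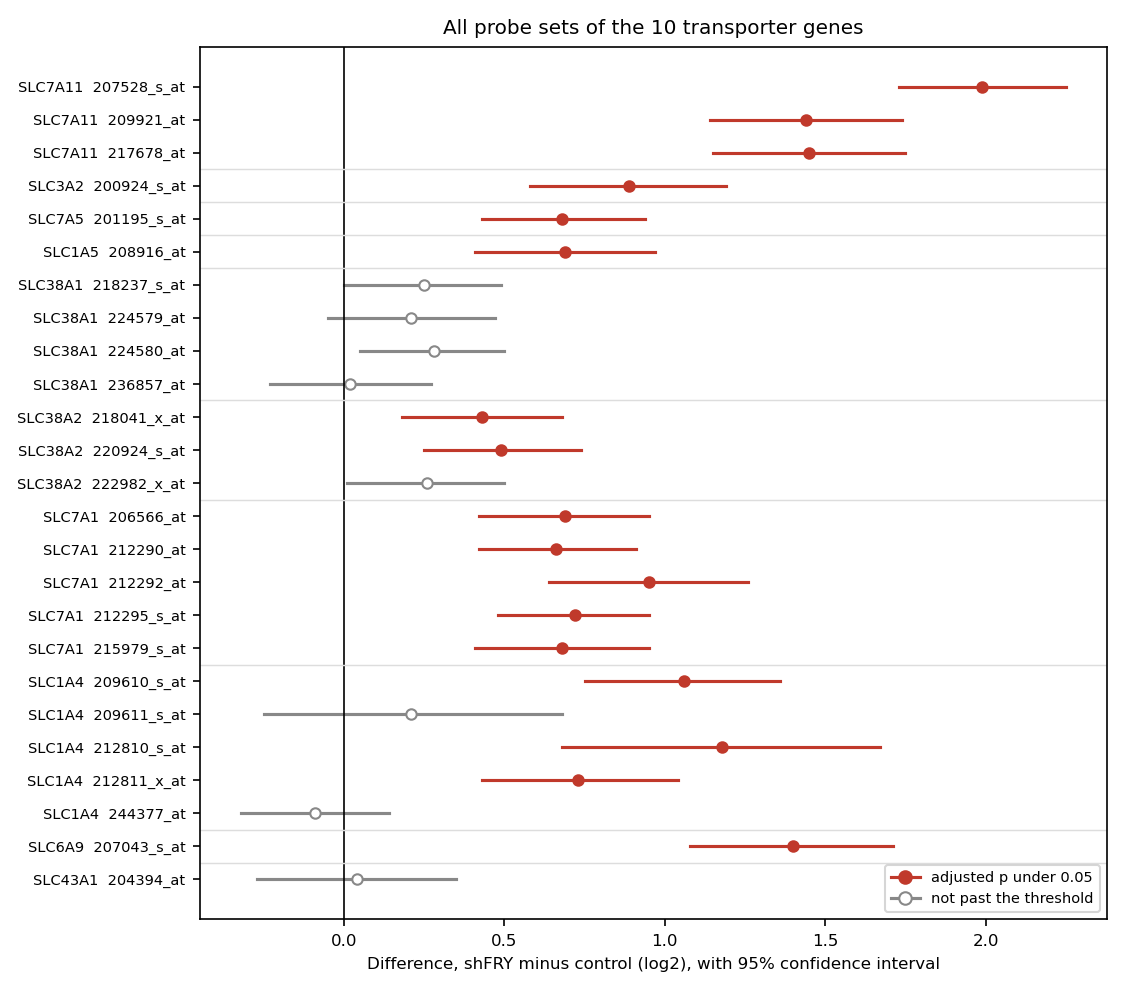
Difference between shFRY and control samples (log2, n = 3 each) at every probe set of the 10 genes, with 95% confidence intervals; filled red points passed an adjusted p of 0.05 in limma over all probe sets and open grey points did not. The 17 red points lie between 0.43 and 1.99, and SLC38A1 and SLC43A1 have none.

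The beta-actin 3' minus 5' difference, a measure of RNA length and amplification, was 2.88, 2.89 and 2.84 in the shFRY samples and 2.33, 2.52 and 2.71 in the control samples. It was higher in shFRY by 0.35, without overlap (exact permutation test, two-sided, p = 0.1, which is the lowest value 3 samples a group allow), while that of GAPDH differed by 0.02 (exact permutation p = 0.4). Its part in the results was examined only by adding it as a covariate. Its values separate the groups, so that fit cannot tell its part from that of clone and construct. With the beta-actin value as a covariate, 2 of the 10 transporter genes passed, SLC7A11 at 1.35 and SLC6A9 at 1.11. The other called genes kept their sign but not their call: SLC3A2 at 0.78, SLC7A5 at 0.62, SLC1A5 at 0.57, SLC7A1 at 0.58 and SLC1A4 at 0.70, with limma adjusted p between 0.152 and 0.378. The SE of these genes also grew, for example from 0.13 to 0.26 for SLC3A2 and from 0.11 to 0.22 for SLC7A5. At probe set level 3 passed in place of 17, all of SLC7A11, and SLC6A9 did not (limma adjusted p = 0.0701). Leaving out any 1 sample left the number of genes called higher at 7 and that of probe sets between 16 and 17.

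**Figure D3:**
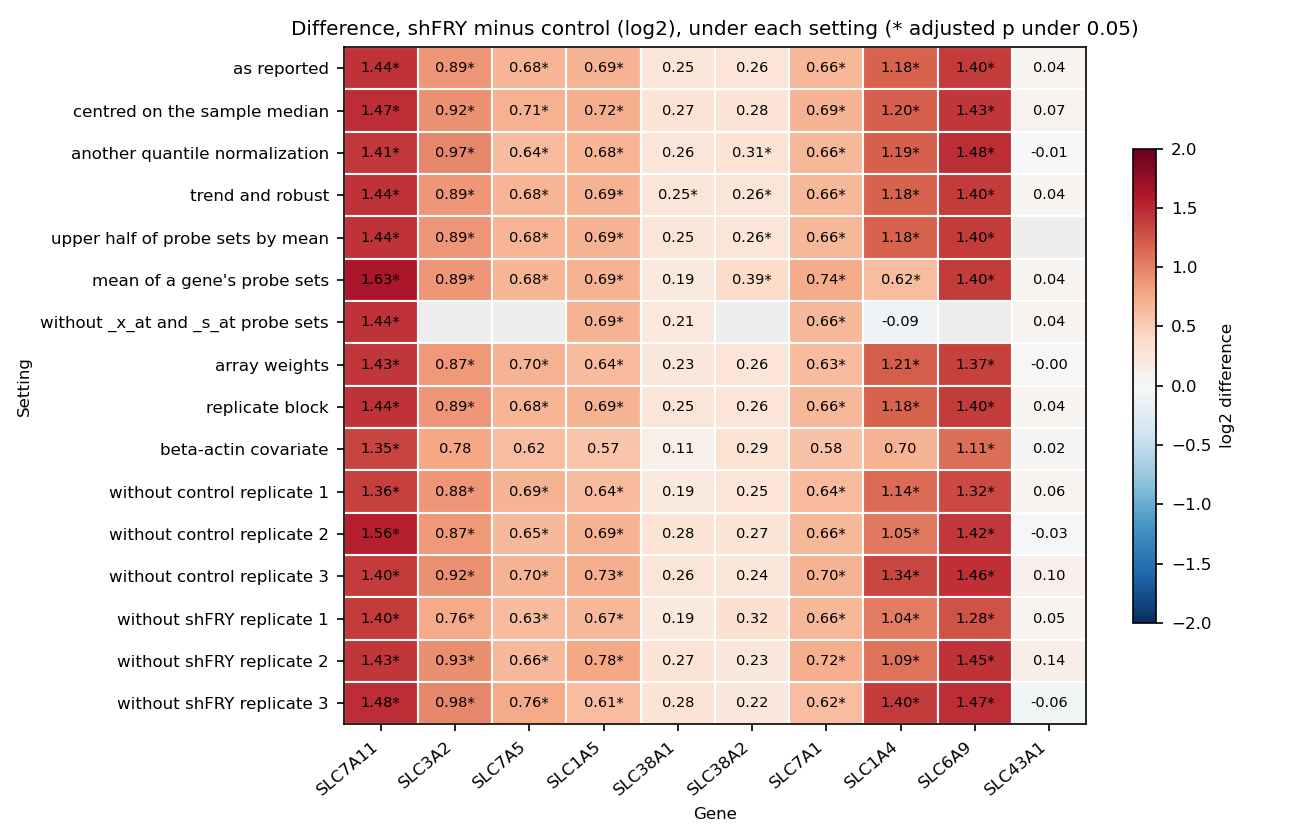
Difference between shFRY and control (log2) for each transporter gene (columns) under each way of processing (rows, the reported one on top); an asterisk marks an adjusted p under 0.05 in limma, and grey cells mark genes with no probe set left. SLC7A11 carries an asterisk in every row, and SLC3A2, SLC7A5, SLC1A5, SLC7A1 and SLC1A4 carry none in the beta-actin row.

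The genes listed as other plasma membrane amino acid transporters, some of which also act inside cells, moved in both directions. Of 38 listed, 35 were measured, 5 rose and 3 fell, and their median difference was 0.15. The 14.3% that rose is close to the 13.7% of all genes, and the 8.57% that fell is below the 16.0% of all genes. SLC7A2, the inducible arginine carrier, was 7.75, 7.93 and 7.80 in the shFRY samples, against 4.84, 4.49 and 3.76 in the control samples (difference 3.46, SE 0.24, limma adjusted p = 3.85e-05). SLC6A14, a broad neutral and cationic amino acid carrier, had 4.69, 4.98 and 4.85 in the shFRY samples, against 2.68, 2.45 and 2.07 in the control samples (difference 2.44). The glutamate carrier genes moved apart. SLC1A3 was 5.38, 5.66 and 5.94 in the shFRY samples, against 3.77, 3.78 and 3.75 in the control samples (difference 1.89). SLC1A1 was 2.39, 2.84 and 2.75 in the shFRY samples, against 5.67, 5.91 and 5.79 in the control samples (difference -3.13, SE 0.14, limma adjusted p = 3.85e-06). The remaining called genes, named after their values were seen, were SLC6A15 (1.03) and SLC1A6 (0.50) as higher and SLC38A6 (-1.22) and SLC7A6 (-0.45) as lower. SLC1A6 lost its call without control sample 1 or 2 or shFRY sample 1 or 3, and SLC7A6 without any 1 control sample. With the mean of its probe sets SLC1A6 was at 0.18 and did not pass (limma adjusted p = 0.128). SLC38A4, the neighbour of SLC38A2 and also named after its values were seen, was dim, with 1.73 ± 0.04 in the shFRY samples and 1.41 ± 0.24 in the control samples (SD, n = 3 each; limma adjusted p = 0.1), and it passed without control sample 2 (limma adjusted p = 0.0251).

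Among carriers of lysosomes and mitochondria, listed together, more genes fell than rose. Of the lysosomal carriers only MFSD12 passed as lower, and the other calls as lower were of mitochondrial carriers. Of 18 measured, 8 fell (44.4%, against 16.0% of all genes) and 3 rose (16.7%, near the 13.7% of all genes), with a median of -0.29. The mitochondrial sideroflexin genes SFXN2 (-1.53, limma adjusted p = 0.00013) and SFXN3 (-1.09, limma adjusted p = 0.000141) fell most, and both belong to the family of the mitochondrial serine carrier SFXN1. The SFXN1 gene, named after its values were seen, also passed as lower, at 218392_x_at (-0.58, limma adjusted p = 0.0112). MFSD12, needed for cysteine import into lysosomes and melanosomes, fell by 0.90 (at -0.33 and not called with the mean of its probe sets), and SLC25A44, a mitochondrial branched-chain amino acid carrier, fell by 0.90. The call of SFXN3 rests on 220974_x_at, and without _x_at and _s_at probe sets its difference was 0.00. With those probe sets left out, 5 of the 18 carriers passed as lower in place of 8. The 3 that rose, named after their values were seen, were SLC25A38 (0.45) and the dim SLC25A2 (0.61) and SLC7A14 (0.36). Without control sample 2, 0 of the 18 passed as higher, without control sample 3 or shFRY sample 1 only 1 did, and with the beta-actin covariate 0 rose and 2 fell.

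Genes that control transporter expression were mostly higher. Of 14 listed, 13 were measured, 9 rose (69.2%, against 13.7% of all genes) and 3 fell (23.1%, against 16.0%), with a median of 0.62. DDIT3, the CHOP transcription factor gene, was 8.55, 8.50 and 8.17 in the shFRY samples, against 4.81, 4.63 and 4.91 in the control samples (difference 3.62). ATF3 (3.53) and TRIB3 (3.49), both targets of ATF4, and BACH1 (2.28), a repressor at antioxidant response elements, followed. Other members were singled out after their values were seen. ATF4 itself had 11.09, 11.04 and 11.01 in the shFRY samples, against 10.52, 10.33 and 10.45 in the control samples (difference 0.62, SE 0.10, limma adjusted p = 0.00215), and its activity is mainly set at translation. CEBPB (1.49), MYC (1.19), the PERK kinase gene EIF2AK3 (0.62) and NFE2L2 (0.44), which encodes NRF2, also rose. KEAP1 (-0.78), which encodes the NRF2 inhibitor, and the eIF2α kinase genes EIF2AK2 (-0.79) and EIF2AK1 (-0.42) fell, while the GCN2 gene EIF2AK4 was at -0.16 (limma adjusted p = 0.524). EIF2AK3 lost its call without control sample 1 or shFRY sample 1 or 2, NFE2L2 without control sample 2 and EIF2AK1 without control sample 3. With the mean of each gene's probe sets EIF2AK3 (0.24) and NFE2L2 (0.25) did not pass. With the beta-actin covariate 6 of the 13 rose and 0 fell, and ATF4 was at 0.68 (limma adjusted p = 0.109).

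Genes of transporter partners and trafficking, listed together with the glutathione genes GPX4, GGT1, GCLM and GCLC, were mixed, with a median of -0.10. Of 12 measured, 3 rose (25.0%, against 13.7% of all genes) and 2 fell (16.7%, near the 16.0% of all genes). TXNIP, an arrestin-like protein that limits nutrient uptake, was 11.14, 11.29 and 11.30 in the shFRY samples, against 9.43, 9.58 and 9.46 in the control samples (difference 1.75). NEDD4L, a ubiquitin ligase of membrane transporters, differed by 1.17 (limma adjusted p = 0.000184), and by 0.32 without _x_at and _s_at probe sets (limma adjusted p = 0.0895). OTUB1, a deubiquitinase that stabilises SLC7A11, was at -0.41, and GPX4, a peroxidase that uses glutathione, at -0.40. Both passed, yet OTUB1 lost its call without control sample 2 or 3, and GPX4 without control sample 1 or 3 or shFRY sample 2 or 3. CD44, which binds SLC7A11 at the surface and is named after its values were seen, was the third gene called higher (0.31, limma adjusted p = 0.0472), and it lost its call without any 1 sample. The glutathione synthesis genes GCLC and GCLM, singled out after their values were seen, were at -0.11 (95% confidence interval -0.36 to 0.13) and -0.17 (-0.48 to 0.14), and neither passed.

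**Figure D4:**
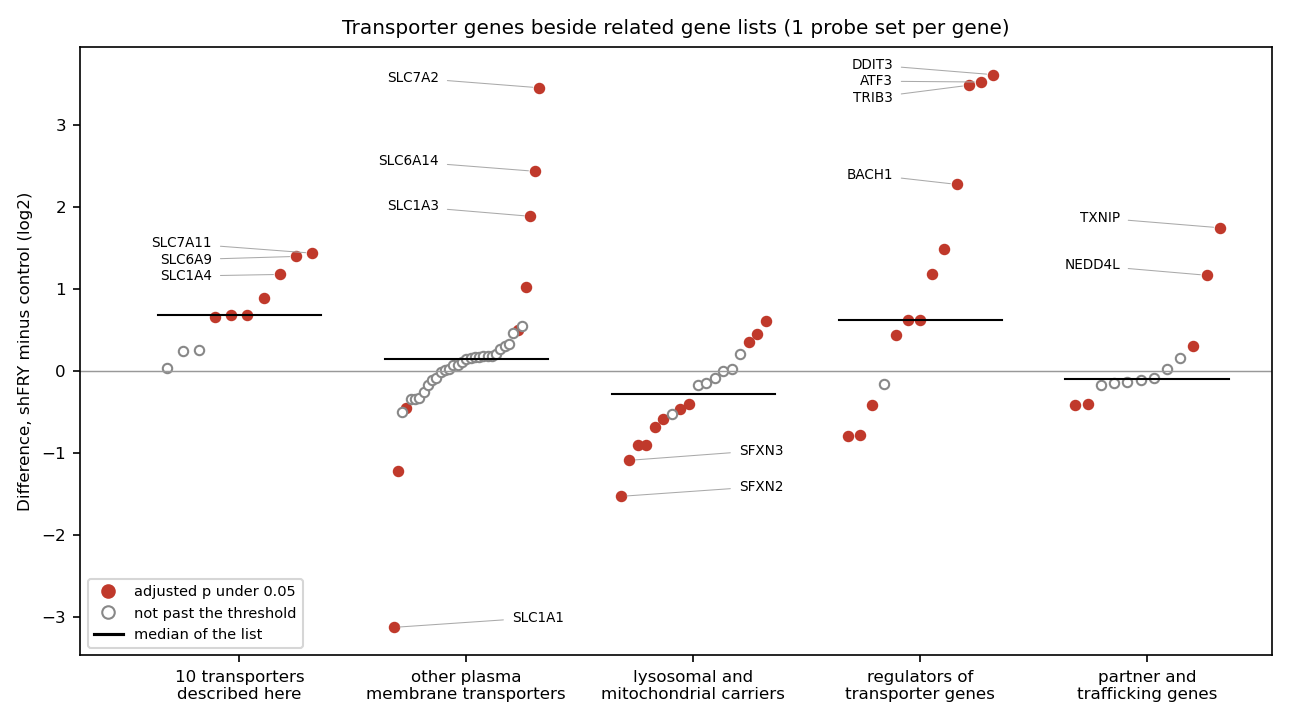
Difference between shFRY and control (log2, 1 probe set per gene) for the 10 transporters and for the 4 related lists, with each list ordered by value; red points passed an adjusted p of 0.05 in limma, open points did not, and black lines are medians. The medians are 0.69, 0.15, -0.29, 0.62 and -0.10 from left to right.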

How the data were processed

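Total RNA of 6 MCF10A cultures was amplified, labelled with biotin and hybridised to 1-colour arrays of 54675 probe sets, 62 of them controls. The log2 values were used as deposited by the authors. RMA made them, per the submitters' processing notes; the sources used here name no version or settings. As usually run, RMA makes the arrays' distributions alike, so a shift shared by all genes cannot be seen. Sample medians were 3.02 to 3.06, and the number of arrays limits the precision.

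Groups come from the sample titles. Probe sets were named through the platform annotation, with symbols updated through Entrez IDs to RefSeq, and those with several genes (1801) or none listed (11721) name no gene. No probe set named a member together with another gene. shFRY was compared with control by limma 3.58.1 in R 4.3.3 (lmFit, eBayes, 4 residual degrees of freedom), with Benjamini-Hochberg adjustment over all 54613 probe sets or all 19775 genes, and a threshold of 0.05. A gene stood as its probe set with the highest mean. Named genes are all members, FRY and up to 4 called genes of each list with the largest absolute difference; others are said to be chosen later. The members and lists were chosen with earlier results of these data known. The fit was tested on simulated data. The titles do not say whether the replicate numbers pair samples. Same-numbered samples did not deviate together (r of 0.003, -0.004 and 0.039), so no pairing was used, but this check cannot show that none existed. SLC36A2, SLC36A3 and SLC38A8 are not analysed here. The alternatives were median centring, quantile normalization, trend and robust options in eBayes, array weights, a filter on dim probe sets, averaging the probe sets of each gene, leaving out _x_at and _s_at probe sets, the replicate number as a block, the beta-actin covariate and leaving out each sample.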

Additional observations from a re-analysis of the deposited data

How the results depend on the processing

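The 10 transporter genes gave 145 values over 15 alternatives, of which 134 stayed on their side of the threshold, 5 lost the call, 5 gained it and 1 called value changed sign. Their 25 probe sets gave 333 values, of which 310 stayed on their side of the threshold, 19 lost the call and 4 gained it, and 0 called values changed sign. Uncalled differences near 0 took either sign, that of SLC43A1 lying between -0.06 and 0.14 when 1 sample was left out. SLC1A4 was at -0.09 without _x_at and _s_at probe sets, where a dim probe set stood for it. That alternative removes 14 of the 25 member probe sets and leaves SLC3A2, SLC7A5, SLC38A2 and SLC6A9 without any, so 6 probe sets and 3 genes passed as higher there. It also gave 0 FRY probe sets as lower, 5 lysosomal and mitochondrial carriers as lower, 0 partner genes as higher, and SFXN3 at 0.00. With the beta-actin covariate 3 member probe sets and 2 member genes passed as higher, 0 FRY probe sets as lower, 1 other plasma membrane transporter as lower, 0 lysosomal and mitochondrial carriers as higher and 2 as lower, 0 regulators as lower and 0 partner genes as lower. The cause was not tested, and the covariate itself separates the groups.

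SLC38A1 passed as a gene with the trend and robust options (0.25), and SLC38A2 with another quantile normalization, the trend and robust options, the filter on dim probe sets and the mean of its probe sets (0.26 to 0.39). The filter on dim probe sets left 1 lysosomal or mitochondrial carrier higher. With the replicate number as a block 2 FRY probe sets passed as lower in place of 1, CD44 lost its call, and the numbers of called member genes and probe sets stayed at 7 and 17. The titles do not say that the numbers pair samples, so this block is not a pairing known from the design. Leaving out 1 sample gave 0 to 2 FRY probe sets lower, 0 to 3 lysosomal and mitochondrial carriers higher and 0 to 2 partner genes lower. Dim probe sets, such as that of SLC43A1, limit what can be seen, since RMA compresses their differences.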

Other observations

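Probe sets of SLC1A4 ordered the shFRY samples differently. At 209611_s_at shFRY sample 3 was the highest, at 4.27, with 3.53 and 3.52 in shFRY samples 1 and 2 and 3.54, 3.45 and 3.68 in the control samples. At 212810_s_at the same sample was the lowest of the shFRY samples, at 6.48. SLC7A8, a light chain partner of SLC3A2 named here after its values were seen, had 2.59, 2.15 and 4.01 in the shFRY samples, against 2.66, 2.23 and 2.21 in the control samples, and did not pass (difference 0.55, limma adjusted p = 0.366). Its high value was again in shFRY sample 3.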
